A study of Mus musculus with 12 samples.

Results

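Liver RNA of wild-type mice fed ethanol was compared with liver RNA of wild-type mice fed a control liquid diet, on 6 of the 12 Affymetrix Mouse Gene 2.0 ST arrays of the series. The arrays were chosen by their titles, which gave 3 wild-type control arrays and 3 wild-type ethanol arrays. All mice were male, on a C57BL/6 background and 8 to 10 weeks old. The control group received liquid control diet for 16 weeks, and the ethanol group a liquid diet containing ethanol at 4% (v/v) over the same time, after a run-in on control diet for both. The other 6 arrays came from Pparβ/δ-null mice of the same background, sex and age, 3 on each of the same diets, and they appear below only where a wild-type value is set against them. In each group 10 mice were fed, per the labels, which do not say whether each array is a separate mouse. The p-values therefore measure only the spread between samples, which may be technical. Whole liver was measured, so fewer cells of a type and less RNA per cell cannot be told apart.

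The comparison addressed which liver transcripts a long period of ethanol feeding changes when PPARβ/δ is present. PPARβ/δ, encoded by Ppard, is a nuclear receptor that fatty acids activate and that regulates genes of lipid and glucose use. Hepatocytes oxidise ethanol to acetaldehyde with cytosolic alcohol dehydrogenases and with the cytochrome P450 Cyp2e1, and oxidise acetaldehyde to acetate with mitochondrial aldehyde dehydrogenase. Chronic ethanol feeding is known to raise the ratio of NADH to NAD, to favour fat storage in hepatocytes and to stress mitochondria and the endoplasmic reticulum. Small nucleolar RNAs (snoRNAs), which take part in the results below, guide the chemical modification of ribosomal and other RNAs and are mostly cut from introns of host genes. The box C/D class guides methylation, the box H/ACA class guides pseudouridylation, and small Cajal body RNAs do the same for spliceosomal RNAs.

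Values are log2 intensities with 1 probe set per gene, and a difference is the ethanol mean minus the control mean on that scale with its standard error from limma, fitted to all 12 arrays. Of 22180 genes, 14031 lay above the 40th percentile of their array on at least 3 arrays and were tested. A gene is said to have risen or fallen, or to be called, only at a Benjamini-Hochberg adjusted p under 0.05 over these 14031 genes. Wild-type control 2 stood apart from the other wild-type control arrays. Its mean correlation across genes was 0.985 with the other wild-type controls and 0.989 with the wild-type ethanol arrays. In a principal component analysis of the 6 arrays the first component, 41.3% of the variance, put controls 1 and 3 at -16.6 and -20.7, control 2 at 4.0 and the ethanol arrays at 6.5, 14.2 and 12.6. The comparison is therefore given with this array and without it.

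The arrays carried the markers of liver. The summed linear intensity of the 12 hepatocyte markers on the array was 114470 to 122260 in the wild-type control arrays and 123810 to 125700 in the ethanol arrays. Only 4 of 13 listed red cell markers and 10 of 13 acinar markers were among the named genes of the array, so blood and pancreas were measured through few genes, and 3 and 5 of these passed the filter. The 20 macrophage and Kupffer cell markers summed to between 10278 and 14134 on control diet and between 11814 and 14600 on ethanol, so the groups overlapped. The sums also overlapped for 7 more of the 11 marker lists. They did not overlap for hepatocytes or for the 10 cholangiocyte markers on the array (982.5 to 1050.1 on control diet, 1097 to 1115 on ethanol). Nor did they for the 13 T and NK cell markers on the array, which were lower on ethanol (643.4 to 651 against 570.2 to 642.6). These sums include 5 cholangiocyte and 6 T and NK cell genes below the filter. The part of these sums in the results was not tested. No member of the 11 cell type marker lists was called with or without wild-type control 2. Ppard read 7.64, 8.01 and 7.68 on control diet and 7.96, 7.77 and 7.85 on ethanol, a difference of 0.08 ± 0.11 with overlapping arrays.

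With all arrays, 13 genes passed, 12 higher and 1 lower with ethanol, and 9 of the 12 were snoRNAs. The background was small: 13 of 14031 genes is 0.0927%, with 0.0855% higher and 0.00713% lower. At an unadjusted p under 0.05 the same limma fit gave 2035 genes (14.5%), 1088 of them higher (7.75%) and 947 lower (6.75%). The 3 ethanol arrays all lay above the 3 control arrays for 1515 genes (10.8%) and all below them for 1208 genes (8.61%). The median difference of all tested genes was -0.005 and the median standard error 0.116.

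Blvrb encodes biliverdin reductase B, a flavin reductase that also reduces certain biliverdins formed from haem. Its log2 intensity was 8.87, 8.78 and 8.76 in the control arrays and 9.41, 9.43 and 9.39 in the ethanol arrays. The 3 ethanol arrays lay within a narrow band above every control array, control 2 included. Blvrb rose 1.53-fold (0.61 ± 0.10, 95% confidence interval 0.40 to 0.82, limma adjusted p = 0.042).

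Tmem86a encodes a lysoplasmalogenase, an enzyme that cleaves the vinyl ether bond of lysoplasmalogens. Its values were 7.46, 7.37 and 7.24 on control diet and 7.84, 8.04 and 7.86 on ethanol, again without overlap. Tmem86a rose 1.47-fold (0.56 ± 0.09, limma adjusted p = 0.0482). Fyttd1 encodes an adaptor that loads messenger RNA for export from the nucleus. Its values were 8.22, 7.97 and 8.10 on control diet and 7.61, 7.40 and 7.57 on ethanol. Fyttd1 fell by 0.57 ± 0.09 (1.48-fold lower, limma adjusted p = 0.042).

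The number of calls turned on single arrays. Without wild-type control 1 or 3 it was 3 or 2, without wild-type ethanol 1, 2 or 3 it was 2, 0 or 2, without null control 1, 2 or 3 it was 5, 4 or 6, and without null ethanol 1, 2 or 3 it was 32, 4 or 20. The count of 0 stood beside 1397 genes at an unadjusted p under 0.05 in that limma fit. With the 70 snoRNA genes left out of the table, 0 of the other 13961 genes passed, with 1987 at an unadjusted p under 0.05, since the adjustment then runs over fewer small p-values.

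The 3 protein-coding genes among the 13 passed only narrowly. Without wild-type control 2 they were called again, with limma adjusted p of 0.0137 for Blvrb, 0.0137 for Tmem86a and 0.00588 for Fyttd1. With any other wild-type array left out, or with snoRNA genes left out of the table, none of the 3 was called: leaving out snoRNA genes gave an adjusted p of 0.109 for each. The size of the Blvrb difference moved little in these refits, between 0.59 and 0.64.

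**Figure D1:**
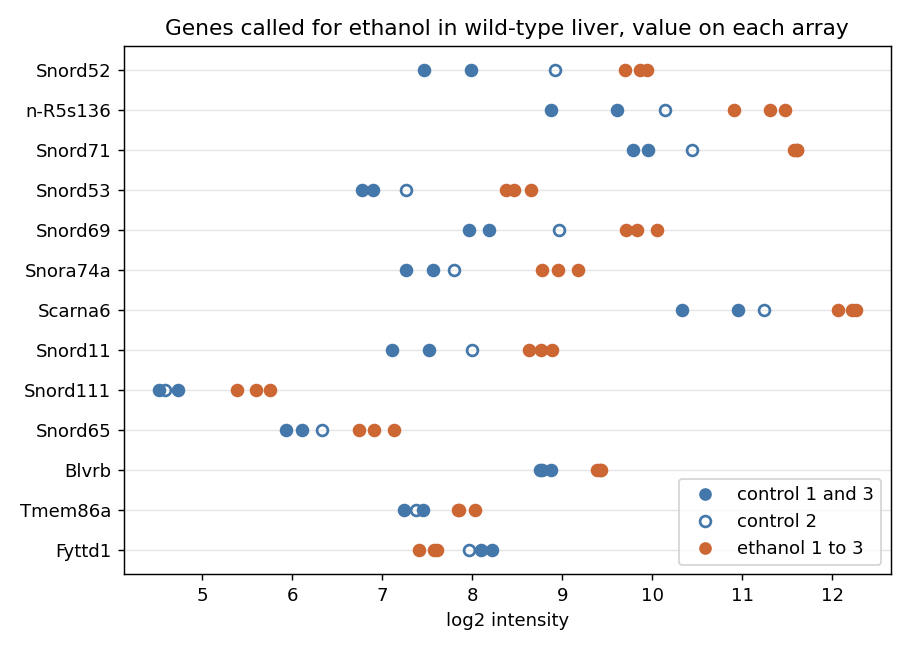
Log2 intensity (horizontal axis) of the 13 called genes (rows) on the 6 wild-type arrays, one point per array, with control 2 as an open circle. Control and ethanol arrays do not overlap in any row, and control 2 is the control array nearest to the ethanol arrays for Snord52, n-R5s136, Snord71, Snord53, Snord69, Snora74a, Scarna6, Snord11, Snord65 and Fyttd1.

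The called snoRNAs rose by more than the called protein-coding genes. Snord71, a box C/D snoRNA, read 9.79, 10.44 and 9.95 on control diet and 11.58, 11.60 and 11.61 on ethanol, a 2.91-fold rise (1.54 ± 0.17, limma adjusted p = 0.00489). Snord53 read 6.78, 7.26 and 6.90 on control diet and 8.46, 8.65 and 8.37 on ethanol, a 2.86-fold rise (1.52 ± 0.17, limma adjusted p = 0.00489). In both, control 2 was the highest control array and still lay more than 1 unit of log2 below every ethanol array.

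Snord52 had the widest control arrays of the called snoRNAs. It read 7.46, 8.92 and 7.98 on control diet and 9.94, 9.87 and 9.70 on ethanol, so control 2 lay nearer to the ethanol arrays than to control 1. Its rise was 3.28-fold with all arrays (1.72 ± 0.28, limma adjusted p = 0.042) and 2.12 ± 0.19 on the log2 scale without control 2. Snord69 rose by 1.49 ± 0.21, Snord11 by 1.22 ± 0.18, Snord111 by 0.97 ± 0.15 and Snord65 by 0.80 ± 0.13. Snord111 was dim, at 4.52 to 4.74 in the control arrays and 5.39 to 5.75 in the ethanol arrays, against filter values of 5.62 to 5.71 on these arrays, so background limits its fold.

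The other called small RNAs belonged to different classes. Snora74a, a box H/ACA snoRNA, read 7.26, 7.80 and 7.57 on control diet and 8.77, 9.18 and 8.95 on ethanol (1.42 ± 0.19, limma adjusted p = 0.0231). Scarna6, a small Cajal body RNA, read 10.33, 11.24 and 10.95 on control diet and 12.06, 12.26 and 12.22 on ethanol (1.34 ± 0.18, limma adjusted p = 0.0231). The locus n-R5s136, annotated as a nuclear gene of 5S ribosomal RNA, read 8.87, 10.14 and 9.61 on control diet and 10.91, 11.31 and 11.47 on ethanol (1.69 ± 0.28, limma adjusted p = 0.0482). 5S ribosomal RNA genes are repeated with near-identical copies, so the source of that signal among the copies is uncertain.

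As a class, 70 of the 78 snoRNA genes on the array passed the filter, and 63 of the 70 had a positive difference, with a median of 0.87 beside -0.006 for the other 13961 genes. At an unadjusted p under 0.05, 53 snoRNAs were higher and 0 lower, and in 51 the ethanol and control arrays did not overlap. Of all tested genes 7.75% were higher at that level, and in 10.8% all ethanol arrays lay above the control arrays. Some snoRNAs, such as Snord73a at 4.94 to 5.22 on control diet, lay below the filter on the wild-type control arrays. They passed it through other arrays, where they were higher, so these counts are a description. The median was 0.97 for the 41 box C/D snoRNAs, 0.80 for the 25 box H/ACA snoRNAs and 0.73 for the 4 small Cajal body RNAs. The range ran from -0.35 for Snord13 to 1.91 for Snora62, so the class was not uniform. Without control 2 the highest values were 2.38 for Snord70 and 2.30 for Snord82, 2 snoRNAs that were not called with all arrays. Snord70 lay below the filter on controls 1 and 3, so background limits its value. Snord43 at -0.006, Snord118 at -0.02 and Snora20 at 0.03 lay near 0.

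Other small non-coding RNAs that are not named as snoRNAs had similar differences. All 12 had a positive difference, with a median of 0.78. Among them were Rpph1, the RNA of ribonuclease P, at 1.23 ± 0.24, and Rnu3a, the U3 RNA that acts in ribosomal RNA processing and is itself of the box C/D type, at 1.25 ± 0.29. Rnu3a lay below the filter on controls 1 and 3, so background limits its value. The same holds for Rny1, named after its value was seen, which lay below the filter on every wild-type control array. The Y RNA Rny3 had a mean of 8.87 over controls 1 and 3 and read 10.10, 10.30 and 10.71 on ethanol, and control 2, at 10.47, lay among the ethanol arrays. MicroRNA genes did not share the pattern: the median of 111 was -0.04, and 44 of them were positive. Long non-coding RNAs (579 genes) had a median of -0.01 and protein-coding genes (13011) one of -0.006. Rn7sk, the 7SK RNA that holds back transcript elongation, differed by 0.14. It had a mean of 13.78 on control diet and 13.91 on ethanol, near the top of the intensity range, where array signals can saturate.

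On single arrays the snoRNA medians were 7.39, 7.90 and 7.37 for wild-type control 1, 2 and 3, and 8.57, 8.65 and 8.42 for wild-type ethanol. Null mice read 8.61, 8.75 and 8.80 on control diet and 9.05, 8.59 and 8.41 on ethanol. The wild-type control arrays, and controls 1 and 3 most, were thus the low ones among the 12 arrays, and the null control arrays lay at the level of the wild-type ethanol arrays. In null mice the median snoRNA difference with ethanol was 0.04, with 42 of 70 positive.

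**Figure D2:**
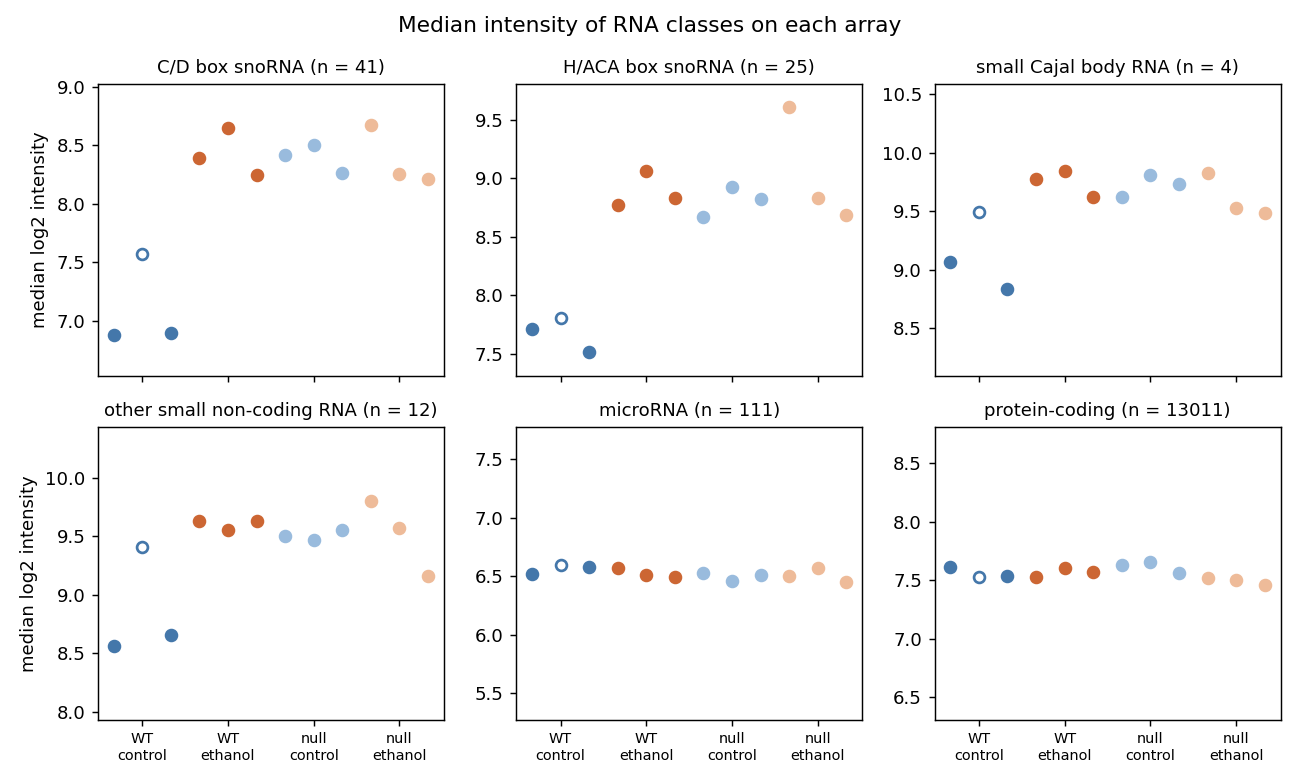
Median log2 intensity (vertical axes, the same length in every panel) of each RNA class on each of the 12 arrays, with wild-type control 2 as an open circle and n the number of genes tested. For box C/D and box H/ACA snoRNAs every wild-type control array, control 2 included, lies below all other arrays. For small Cajal body RNAs and other small non-coding RNAs, wild-type controls 1 and 3 are the low arrays. There control 2 lies within the range of the other groups. MicroRNA and protein-coding medians are level.

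Most tested snoRNAs had a more positive difference than their host genes. By position in the RefSeq annotation, without use of strand, 54 of the tested snoRNAs lay inside 42 tested genes. The median difference was 0.97 for these snoRNAs and 0.08 for the hosts, 25 of the 42 hosts had a positive difference, and 0 hosts were called with all arrays. Without control 2, 1 host was called higher and 3 lower, beside 2.25% higher and 3.53% lower of all tested genes. These host counts are small and are given as a description. The snoRNA had the more positive value in 49 of 54 pairs. Snord71 (1.54) lies within Ap1g1 at -0.13 ± 0.07, Snord53 (1.52) within Wdr43 at -0.06 ± 0.12, Snord69 (1.49) within Gnl3 at -0.17 ± 0.12 and Snord11 (1.22) within Nop58 at -0.06 ± 0.13. Gnl3 and Nop58 are themselves nucleolar proteins, and Nop58 is a core protein of box C/D particles. These 4 hosts are named for the snoRNA they hold. Hosts whose snoRNAs were not tested are outside this tally. Of 15 tested snoRNA host genes without a main protein product, 8 had a positive difference, with a median of 0.09. The summed intensity of the 17 such genes on the array did not overlap (2554 to 2841 on control diet, 2950 to 3110 on ethanol). Of the 15 tested, Snhg17 was called without control 2 at 1.04 ± 0.18 (limma adjusted p = 0.0133). It read 8.44, 9.22 and 8.31 on control diet and 9.44, 9.45 and 9.37 on ethanol. That probe set differed by 0.76 with all arrays and the gene's other probe sets by 0.42 and 0.25, so the size of the rise is uncertain.

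Without wild-type control 2, 4 hosts were called, and they are named after their values were seen. The non-coding 2410006H16Rik rose by 0.58, beside 0.90 to 1.59 for its 3 snoRNAs. Eif5 (-0.36), Snx5 (-0.33) and Ipo7 (-0.49) were lower, beside 1.31, 1.23 and 1.02 for their snoRNAs. Proteins of snoRNA particles were not higher either: of 22 tested, 9 had a positive difference, the median was -0.06 and 0 were called with all arrays. Without control 2, Npm1, which encodes the nucleolar protein nucleophosmin, fell by 0.39 ± 0.10 (limma adjusted p = 0.0467), and Gar1, a core protein of box H/ACA particles named after its value was seen, fell by 0.52.

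Without wild-type control 2, the fit to the 11 remaining arrays called 810 of 14031 genes (5.77%), 315 higher (2.25%) and 495 lower (3.53%). All 13 genes called with 12 arrays were among them. Of the 810, 48 were snoRNAs, all higher, and 762 were not. The median size of the change over the 810 genes was 0.47 on the log2 scale. The median of all genes was -0.015, and 47.1% of genes had a positive value, beside 48.7% with all arrays. The group of 2 control arrays makes this comparison rest on the agreement of wild-type controls 1 and 3: leaving out control 1 as well left 53 calls, 48 of them shared, and leaving out control 3 as well left 66, 64 of them shared.

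**Figure D3:**
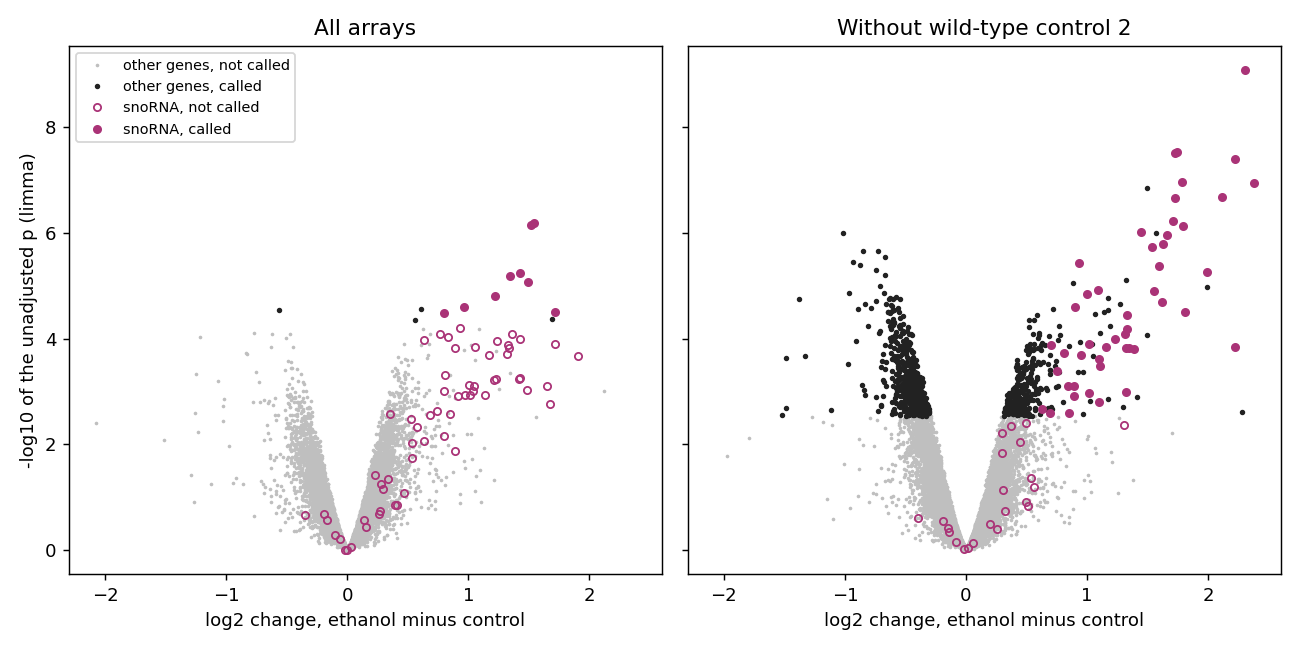
Log2 change with ethanol in wild-type liver (horizontal axis) against the negative log10 of limma's unadjusted p (vertical axis) for 14031 genes, with all 12 arrays (left) and without wild-type control 2 (right). With all arrays 13 genes are called, 9 of them snoRNAs; without control 2, 810 genes are called, 48 of them snoRNAs.

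The position of the other arrays was measured for the 810 genes. Control 2 had no part in the fit behind the calls, but it entered the filter and the choice of probe sets. The 6 null arrays entered these steps and also the estimate of the spread. Neither control 2 nor the null arrays are therefore independent of the choice of the 810 genes. Wild-type control 2 was nearer to the wild-type ethanol mean than to the mean of controls 1 and 3 in 645 of them (79.6%), against 58.4% of all tested genes. The null control mean was nearer to wild-type ethanol in 710 (87.7%, against 63.4% of all tested genes) and the null ethanol mean in 722 (89.1%, against 8415 of all 14031). For the genes called higher, the median difference from controls 1 and 3 was 0.36 in control 2, 0.44 to 0.57 in the wild-type ethanol arrays, 0.47 to 0.53 in the null control arrays and 0.39 to 0.47 in the null ethanol arrays. For the genes called lower it was -0.42 in control 2, -0.45 to -0.47 in wild-type ethanol, -0.33 to -0.39 in null control and -0.44 to -0.45 in null ethanol. The genes were chosen for a gap between controls 1 and 3 and the wild-type ethanol arrays, so that gap is set by the choice. At these genes the medians of control 2 and the 6 null arrays also lay on the ethanol side, and 4 of these arrays were from control diet. Choosing genes where controls 1 and 3 are extreme also draws other arrays to that side, and the size of this was not tested. Within the wild-type group a property of controls 1 and 3 and the diet cannot be told apart.

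**Figure D4:**
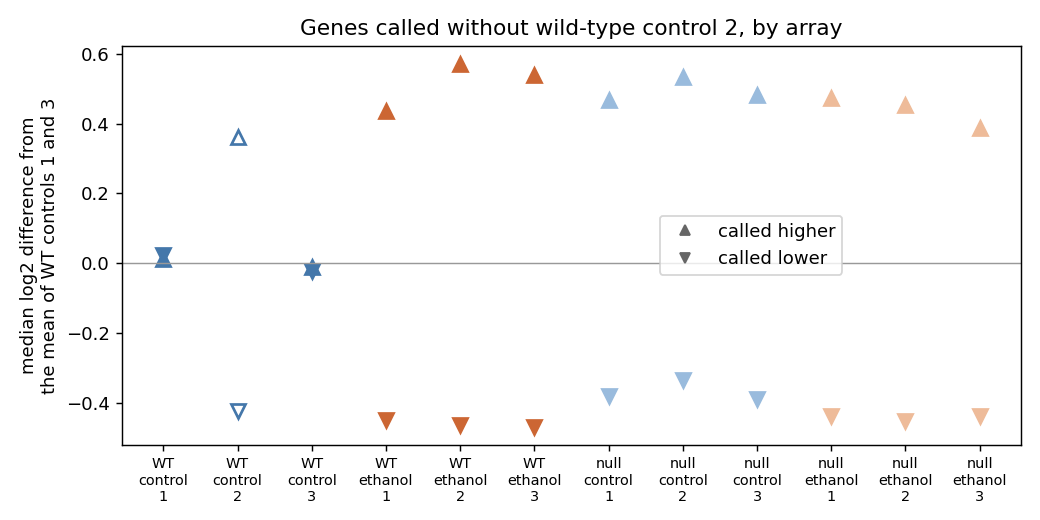
Median log2 difference from the mean of wild-type controls 1 and 3 (vertical axis) on each of the 12 arrays, for genes called higher (triangles up) and lower (triangles down) without wild-type control 2, which is open. The median of the genes called higher lies between 0.36 and 0.57, and that of the genes called lower between -0.33 and -0.47, on all arrays other than wild-type controls 1 and 3. The genes were chosen for the gap between these controls and the wild-type ethanol arrays.

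Among protein-coding genes called higher without control 2, Zbtb16 had the largest rise. Zbtb16 encodes PLZF, a zinc finger repressor of transcription that glucocorticoids induce. It read 7.52, 8.40 and 8.30 on control diet and 10.69, 9.88 and 10.00 on ethanol, so all 3 control arrays lay below all ethanol arrays. Its difference was 2.12 ± 0.50 with all arrays (limma adjusted p = 0.117) and 2.28 ± 0.59 without control 2 (adjusted p = 0.0463). In null mice it read 8.78, 7.89 and 8.08 on control diet and 10.30, 10.52 and 8.13 on ethanol, a difference of 1.40 with 1 ethanol array at control level.

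Fam13a read 8.77, 9.02 and 8.15 on control diet and 9.72, 9.52 and 9.96 on ethanol. It differed by 1.08 ± 0.19 with all arrays (limma adjusted p = 0.0529) and rose by 1.27 ± 0.18 without control 2 (adjusted p = 0.00655). Slc2a1, which encodes the glucose transporter GLUT1, read 8.76, 8.74 and 8.67 on control diet and 9.34, 9.22 and 9.50 on ethanol. All 3 of its control arrays agreed within 0.1, control 2 included, and it rose by 0.64 ± 0.12 without control 2 (limma adjusted p = 0.0183; 0.0529 with all arrays).

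Further genes with small p were Cisd1, which encodes the iron-sulphur protein mitoNEET of the outer mitochondrial membrane, Midn, and Tmem160. Their differences with all arrays were 0.67 ± 0.12, 0.68 ± 0.12 and 0.61 ± 0.11, with limma adjusted p of 0.0547, 0.0529 and 0.0547, and all 3 were called without control 2. Slc16a5, a monocarboxylate transporter, Gstt2, a glutathione transferase, and Spry4, a feedback inhibitor of growth factor signalling, were called without control 2 at 1.30, 1.18 and 1.17. In these 3 genes control 2 lay within the range of the ethanol arrays: Spry4 read 6.92, 8.40 and 7.36 on control diet and 8.01, 8.58 and 8.35 on ethanol.

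A few of the largest rises rest on probe sets of genes whose other probe sets behaved differently. Ppan, which encodes a ribosome biogenesis factor, was called without control 2 at 1.49 ± 0.13, and its second probe set differed by -0.0038 with all arrays. Ptcd3, which encodes a mitochondrial ribosomal protein, was called at 1.18 ± 0.17, and its second probe set differed by -0.19. Taf1d, a subunit of the RNA polymerase I initiation factor, was called at 1.32 ± 0.17, and its other 10 probe sets differed by 0.04 to 0.98. These genes are known hosts of snoRNAs, and the labels do not say which exons or introns their probes cover, so their values are uncertain as levels of the messenger RNA.

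Among the largest falls without control 2 was Serpina7. Serpina7, which encodes thyroxine-binding globulin, read 10.95, 10.49 and 11.43 on control diet and 9.65, 9.75 and 9.70 on ethanol. It differed by -1.25 ± 0.27 with all arrays (limma adjusted p = 0.0914) and fell by 1.48 ± 0.28 without control 2 (adjusted p = 0.0175). Mup21, a major urinary protein gene, read 8.35, 7.98 and 8.27 on control diet and 7.23, 7.11 and 6.60 on ethanol. It fell by 1.33 ± 0.25 without control 2 (limma adjusted p = 0.0164, and 0.0539 with all arrays). Many major urinary protein genes are close copies of each other, so the member measured is uncertain.

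Trhde, an ectoenzyme that degrades thyrotropin-releasing hormone, fell by 1.52 ± 0.40 without control 2 (limma adjusted p = 0.0494), with 1 ethanol array at 5.43 and the others at 7.14 and 6.93. Chrm3, a muscarinic acetylcholine receptor, read 7.25, 6.42 and 7.46 on control diet and 5.68, 6.05 and 6.20 on ethanol, and fell by 1.38 ± 0.19 without control 2. Slc3a1, a subunit of a cystine transporter, fell by 0.97, and Slc12a2, the sodium, potassium and chloride cotransporter, by 0.88. For the regulators Ints6, Tsc22d1 and Dcun1d5 the falls were 0.89, 0.91 and 0.93. Ints6, a subunit of the Integrator complex that processes small nuclear RNAs, read 9.70, 9.27 and 9.60 on control diet and 8.76, 8.87 and 8.64 on ethanol, without overlap.

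Sfr1 and Scara5 show how far the choice of arrays matters. Sfr1, a DNA recombination factor, read 9.94, 8.75 and 9.81 on control diet and 9.02, 8.78 and 8.79 on ethanol, with control 2 below every ethanol array. Its difference was -0.64 ± 0.23 with all arrays and -1.01 ± 0.11 without control 2 (limma adjusted p = 0.00101). The 6 null arrays read 8.70 to 8.98. Scara5, a scavenger receptor for ferritin, read 6.85, 5.99 and 7.62 on control diet and 6.10, 6.21 and 6.06 on ethanol, and the null arrays read 5.61 to 6.73.

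Of the lower genes with the smallest p over all arrays, 6 more were called without control 2. Gbp9, an interferon-induced guanylate-binding protein, read 6.56, 6.61 and 6.58 on control diet and 6.19, 6.09 and 6.04 on ethanol (-0.47 ± 0.08, limma adjusted p = 0.0529). Dsel, an epimerase of dermatan sulphate, differed by -0.45 ± 0.08 and lay at 5.21 to 5.86, around the filter. Tut7, a terminal uridylyltransferase that tags RNAs for decay, read 10.18, 10.02 and 10.10 on control diet and 9.66, 9.52 and 9.62 on ethanol (-0.50 ± 0.09, adjusted p = 0.0539). The chromatin remodeller Chd1 (-0.63 ± 0.12), the phospholipid flippase Atp11a (-0.83 ± 0.16) and H2-Q1, a histocompatibility gene (-0.83 ± 0.16), had adjusted p of 0.0547, 0.0612 and 0.0609.

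Genes of ethanol and acetaldehyde oxidation had a median difference near 0. All 15 listed genes were tested, 6 had a positive difference, the median was -0.02, and 0 were called with all arrays. Before adjustment 2 were lower and 0 higher at p under 0.05, and in 3 the ethanol arrays all lay below the control arrays. Of all tested genes 6.75% were lower and 7.75% higher at that level, and in 8.61% the ethanol arrays all lay below. These shares are the background for the counts of this list and of every list below. A count near them is not a result about the list. The list's summed intensity did not overlap: control arrays lay at 80082 to 82457 and ethanol arrays at 77912 to 79599. Aldh1b1, a mitochondrial aldehyde dehydrogenase, read 7.90, 7.83 and 7.70 on control diet and 7.49, 7.11 and 7.61 on ethanol (-0.41 ± 0.16, limma adjusted p = 0.277). Cyp2e1 read 13.92, 13.95 and 13.94 on control diet and 13.92, 13.89 and 13.94 on ethanol (-0.02 ± 0.07). Adh1, the main alcohol dehydrogenase of liver, differed by 0.07 ± 0.08, and Aldh2, the mitochondrial aldehyde dehydrogenase, by -0.03 ± 0.07. These 3 genes lay near the top of the intensity range, where array signals can saturate.

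Adh4, an alcohol dehydrogenase that also acts on retinol, read 12.34, 11.89 and 12.20 on control diet and 11.45, 11.61 and 11.52 on ethanol. Control 2 was the lowest control array and lay above all ethanol arrays. The difference was -0.62 ± 0.11 with all arrays (limma adjusted p = 0.0529), and Adh4 fell by 0.74 ± 0.09 without control 2 (adjusted p = 0.0028). The 6 null arrays read 11.49 to 11.66, at the wild-type ethanol level on both diets.

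Genes of the xenobiotic receptors CAR and PXR leaned higher without a call. Of 28 listed, 23 were tested and 18 had a positive difference, with a median of 0.19, and 0 were called with or without control 2. At an unadjusted p under 0.05, 6 were higher and 1 lower. Cyp2b10, the best-known target of CAR, read 4.96, 5.65 and 5.47 on control diet and 7.52, 6.51 and 6.72 on ethanol (1.56 ± 0.43, limma adjusted p = 0.147). On control diet it was at the level of the filter or under it, so background limits its fold. Cyp2b9, another P450 of the subfamily, read 8.33, 8.33 and 8.80 on control diet and 9.56, 10.57 and 9.35 on ethanol (1.34 ± 0.29, adjusted p = 0.0914), and Cyp2b genes are close in sequence, so their probes may share signal. Cyp3a11, the main PXR target, differed by 0.72 ± 0.21.

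Targets of PPARα, the receptor that drives fatty acid oxidation in fasting liver, had a median of 0.25, with 22 of 26 tested genes positive. With all arrays 0 were called, and at an unadjusted p under 0.05, 9 were higher and 0 lower. Acot2, a mitochondrial acyl-CoA thioesterase, read 9.36, 9.41 and 8.98 on control diet and 9.94, 10.20 and 10.27 on ethanol (0.89 ± 0.22, limma adjusted p = 0.118), and was called without control 2 at 0.96 ± 0.25 (adjusted p = 0.0482). Acaa1b, a peroxisomal thiolase, differed by 0.70 ± 0.22, and Cidec, a lipid droplet protein, by 1.13 ± 0.38. Pdk4 and Angptl4, targets shared by the PPAR receptors, differed by 0.34 ± 0.30 and 0.25 ± 0.22 with overlapping arrays. Fatty acid oxidation enzymes as a list had a median of 0.03, with 18 of 31 positive, 0 called, and 1 higher and 2 lower at an unadjusted p under 0.05. In null mice the PPARα list had a median of -0.08, with 9 of 26 positive, and the difference between the genotypes was not called for any of its members. The list's summed intensity was 63626, 71766 and 76833 in the null control arrays. In the null ethanol arrays it was 80649, 75949 and 53793, with null ethanol 3 below every other null array. Array weights gave that array 0.429, and the null value of this list without it was not tested.

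Lipid droplet, lipolysis and fat uptake genes had a median of 0.24, with 17 of 23 positive. At an unadjusted p under 0.05, 7 were higher and 0 lower, and 0 were called with all arrays. Vldlr, a receptor for triglyceride-rich lipoproteins that ATF4 can induce, read 6.08, 6.13 and 6.08 on control diet and 6.74, 6.52 and 6.98 on ethanol (0.65 ± 0.15, limma adjusted p = 0.117). Plin3 differed by 0.42 ± 0.13 and the lipoprotein lipase gene Lpl by 0.62 ± 0.22. Plin2, the main droplet coat protein of hepatocytes, differed by -0.04 ± 0.18. Without control 2 the triglyceride lipase gene Pnpla2 was called at 0.46 and is named after its value was seen. Fatty acid and triglyceride synthesis genes had a median of -0.003, with 12 of 27 positive and 0 called with or without control 2.

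Cholesterol synthesis genes leaned lower. Of 22 listed, 18 were tested, 16 had a negative difference, the median was -0.27, and 0 were called with all arrays. At an unadjusted p under 0.05, 6 were lower and 0 higher. Msmo1, the sterol C4-methyl oxidase, read 8.10, 7.92 and 9.09 on control diet and 7.17, 7.04 and 7.13 on ethanol (-1.26 ± 0.34, limma adjusted p = 0.14). Nsdhl, the next enzyme of C4 demethylation, read 9.48, 9.24 and 9.95 on control diet and 8.59, 8.59 and 8.42 on ethanol (-1.02 ± 0.29, adjusted p = 0.153). Sqle, squalene epoxidase, read 6.92, 7.03 and 8.81 on control diet and 6.09, 6.29 and 5.83 on ethanol (-1.52 ± 0.49, adjusted p = 0.192). Control 3 was the highest array for all 3 genes, and no control array overlapped the ethanol arrays.

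Without control 2, Msmo1 fell by 1.48 ± 0.37 (limma adjusted p = 0.043) and Lbr, a sterol C14 reductase that also anchors chromatin to the nuclear envelope, by 0.61 ± 0.16 (adjusted p = 0.0479). The list's median was then -0.32. In null mice it was -0.25, with 17 of 18 negative and 0 called. Genes of sterol control, uptake and efflux had a median of -0.03, with 8 of 17 positive. Scarb1, the HDL receptor, was called higher without control 2 at 0.34 ± 0.08 (adjusted p = 0.0386).

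Promoters of sterol synthesis genes are known to carry CCAAT boxes, which bind NF-Y beside the sterol regulatory factor SREBP2. The letters CCAAT, searched on both strands in RefSeq windows (GRCm38.p6) from 250 bases before to 50 bases after the start, were found in 16 of the 17 listed genes with a window and in 15 of the 15 that were also tested. Of 27025 genes with a window 41.06% held them, and of 32851 windows 37.41%. The stretches of Msmo1 and Nsdhl that hold these letters are shown because both genes had among the lowest values of the list. The Msmo1 stretch is chr8:64733599-64733768 on the minus strand with 3 matches, and the Nsdhl stretch chrX:72918382-72918520 on the plus strand with 2. Capitals mark CCAAT, or ATTGG where the match is on the other strand.
Msmo1: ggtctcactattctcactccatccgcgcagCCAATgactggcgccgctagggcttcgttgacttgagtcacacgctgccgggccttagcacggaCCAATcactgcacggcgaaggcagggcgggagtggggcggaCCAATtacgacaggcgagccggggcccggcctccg
Nsdhl: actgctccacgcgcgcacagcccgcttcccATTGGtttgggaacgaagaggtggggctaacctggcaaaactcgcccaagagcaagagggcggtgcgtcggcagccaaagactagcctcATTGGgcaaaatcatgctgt
These matches describe the sequence and no binding was measured.

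Genes of the ATF4 response, which cells use under amino acid and mitochondrial stress, had a median of 0.09, with 11 of 19 positive. With all arrays 0 were called, and at an unadjusted p under 0.05, 4 were higher and 1 lower. Trib3, a pseudokinase that restrains insulin signalling, read 6.73, 7.15 and 6.15 on control diet and 7.29, 7.38 and 7.55 on ethanol (0.73 ± 0.21, limma adjusted p = 0.166), and rose by 0.97 ± 0.20 without control 2 (adjusted p = 0.0218). Ddit3, which encodes the stress factor CHOP, differed by -0.28 ± 0.12. The letters TGATGNAA of the response element that ATF4 binds with C/EBP partners, searched on both strands in the same windows, were in 8 of 22 listed genes, among them Trib3 and Vldlr, against 4.511% of all genes with a window. The Vldlr stretch, chr19:27216790-27216857 on the plus strand, is shown because Vldlr had the smallest p of this list, and capitals mark the match on the other strand.
Vldlr: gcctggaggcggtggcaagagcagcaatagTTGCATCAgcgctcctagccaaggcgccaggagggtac
Endoplasmic reticulum chaperones and stress genes had a median of -0.02, with 11 of 22 positive and 0 called with all arrays. Without control 2, Sec61b, a subunit of the translocation channel, rose by 0.48 and the ubiquitin ligase gene Syvn1 by 0.69, while Dnajb11, a chaperone named after its value was seen, fell by 0.58.

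Genes of energy production and protein synthesis leaned higher by small amounts. Complex I subunits had a median of 0.12, with 25 of 32 positive and 8 higher against 0 lower at an unadjusted p under 0.05. Subunits of complexes II to V had a median of 0.13, with 26 of 37 positive, 7 higher and 2 lower at that level. With all arrays 0 of either list were called. Uqcr11, a small subunit of complex III, read 9.40, 9.42 and 9.42 on control diet and 9.85, 9.76 and 9.82 on ethanol (0.40 ± 0.08, limma adjusted p = 0.0852). Its arrays agreed within 0.1 in each group, control 2 included. Without control 2, Uqcr11, Cox4i1 and Uqcrc1 were called at 0.40, 0.56 and 0.39, and of complex I Ndufa7 at 0.52 and Ndufs8, named after its value was seen, at 0.41.

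Cytosolic ribosomal protein genes had a median of 0.15, with 46 of 56 positive. At an unadjusted p under 0.05, 18 were higher and 1 lower, and 0 were called with all arrays. Rplp1, an acidic protein of the ribosomal stalk, read 11.62, 11.54 and 11.44 on control diet and 11.96, 11.92 and 11.98 on ethanol (0.42 ± 0.08, limma adjusted p = 0.0648). Rplp0, the base of the stalk, differed by 0.54 ± 0.12 and Rps19 by 0.53 ± 0.13. Without control 2, 7 were called higher and 1 lower (Rpl27a at -0.50, named after its value was seen). Ribosomal protein genes have many processed pseudogenes, so their signal may include close copies. In null mice the medians of these 3 lists were -0.05, -0.06 and -0.04.

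Antioxidant and haem genes gave few calls. NRF2 targets had a median of 0.20, with 16 of 21 positive, 5 higher and 1 lower at an unadjusted p under 0.05, and 0 called with all arrays. Gsta4, a glutathione transferase that removes lipid peroxidation products, read 10.01, 10.33 and 9.58 on control diet and 10.80, 10.67 and 10.69 on ethanol, and rose by 0.92 ± 0.19 without control 2 (limma adjusted p = 0.0216). Txnrd1, a thioredoxin reductase, fell by 0.49 ± 0.09 without control 2 (adjusted p = 0.0133), so the calls of this list went in both directions, and its median without control 2 was 0.08. Genes of haem synthesis and breakdown had a median of 0.12, with 14 of 17 positive. Blvrb was the member called with all arrays, and without control 2 Tmem14c, a mitochondrial protein needed for haem synthesis, was called too at 0.70 ± 0.13. Pdxk, the vitamin B6 kinase, differed by 0.23 ± 0.14.

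**Figure D5:**
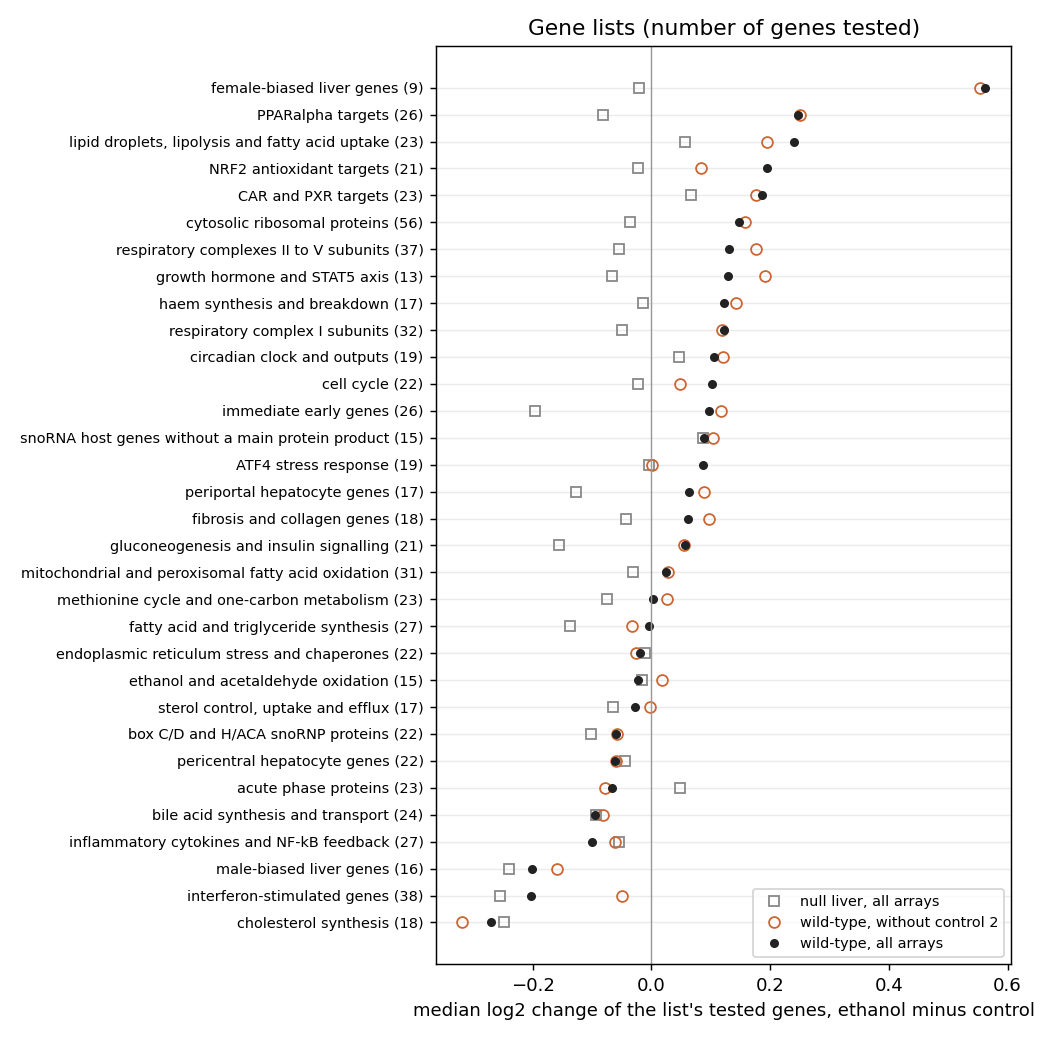
Median log2 change with ethanol (horizontal axis) of the tested genes of each list (rows, number tested in brackets), in wild-type liver with all arrays (filled), in wild-type liver without control 2 (open circles) and in null liver (squares). With all arrays the wild-type medians run from -0.27 for cholesterol synthesis to 0.56 for the 9 female-biased genes. The interferon list moves from -0.20 to -0.05 when control 2 is left out.

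Immune and inflammatory lists held 0 called genes with or without control 2. Interferon-stimulated genes had a median of -0.20, with 32 of 38 negative, 9 lower and 1 higher at an unadjusted p under 0.05. Parp14, an ADP-ribosyltransferase, read 8.33, 8.53 and 8.36 on control diet and 7.74, 8.00 and 8.10 on ethanol (-0.46 ± 0.12, limma adjusted p = 0.143), and Herc6, a ubiquitin ligase, differed by -0.41 ± 0.12. Bst2, which encodes tetherin, went the other way at 0.46 ± 0.12. Without control 2 the list's median was -0.05, with 23 of 38 negative, so the array moved this list by more than its remaining value. Inflammatory cytokine and NF-kB feedback genes had a median of -0.10 and acute phase genes one of -0.07. Saa2, a serum amyloid gene, read 8.68, 10.19 and 11.11 on control diet and 7.25, 7.78 and 8.73 on ethanol (-2.08 ± 0.59, adjusted p = 0.158), with a spread over control arrays larger than the difference.

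Sex-biased genes leaned apart. Male-biased genes had a median of -0.20, with 13 of 16 negative, and female-biased genes a median of 0.56, with 8 of 9 positive, and 0 of either list were called with all arrays. Only 9 of 21 listed female-biased genes passed the filter in these male livers, and a dim gene that is high on at least 3 arrays passes through them, so the median of the 9 is a description. Cyp2a4, a steroid hydroxylase, read 9.79, 10.13 and 10.00 on control diet and 11.16, 9.65 and 11.23 on ethanol, with 1 ethanol array below the controls. Cish, a feedback inhibitor of growth hormone signalling, differed by 0.82 ± 0.36, and Jak2, its kinase, fell by 0.54 ± 0.12 without control 2 (limma adjusted p = 0.0289).

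Other metabolic and regulatory lists stayed close to the background. Bile acid genes had a median of -0.09, with 17 of 24 negative. Nr0b2, the repressor SHP, read 9.66, 10.85 and 9.93 on control diet and 10.89, 11.19 and 10.38 on ethanol, and was called without control 2 at 1.03 ± 0.25 (limma adjusted p = 0.0371). Medians were 0.06 for gluconeogenesis and insulin signalling, 0.003 for one-carbon metabolism, 0.11 for clock genes, 0.10 for immediate early genes, 0.10 for the cell cycle and 0.06 for fibrosis, with 0 called in each with all arrays. Nr1d1, a clock repressor, read 8.65 in control 3 and 10.62 to 11.06 on the other 5 wild-type arrays, and its difference of 0.73 ± 0.43 was -0.0061 without control 3. The immediate early gene Ier2 was called without control 2 at 0.61 ± 0.14 (adjusted p = 0.0292). Periportal and pericentral hepatocyte genes had medians of 0.06 and -0.06.

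Gene length moved with the comparison. Among protein-coding genes the median difference with all arrays was 0.04, 0.03, -0.003, -0.04 and -0.04 over 5 equal groups of genes in order of RefSeq gene span, from the shortest to the longest. Genes called higher without control 2 had a median span of 8.89 kb (n = 248) and genes called lower one of 36.1 kb (n = 490), against 22.2 kb for all 13011. Spearman's correlation across genes between span and an array's deviation from the mean of all arrays, given as a description, was 0.23 for wild-type control 1, -0.006 for control 2, 0.09 for control 3, and -0.11, -0.07 and -0.07 for the ethanol arrays. The part of span, or of what moves with it, in the calls was not tested.

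Against the null mice, the difference in the ethanol effect was tested gene by gene. It passed for 2 of 14031 genes (0.0143%), both snoRNAs, with 2110 genes at an unadjusted p under 0.05 in the same limma fit. Snord53 had the effect of 1.52 in wild-type mice and -0.29 ± 0.17 in null mice, a difference of -1.80 ± 0.24 (limma adjusted p = 0.0484). Its level also differed by genotype: the 6 null arrays read 11.22 to 12.00, against 6.78 to 8.65 in wild-type. Snord111 had 0.97 in wild-type and -0.58 ± 0.15 in null mice, where it read 5.72, 5.87 and 5.92 on control diet and 5.54, 5.35 and 4.87 on ethanol. That difference was -1.55 ± 0.21 (limma adjusted p = 0.0484). Snord111 lay above the filter only on the 3 null control arrays and 1 wild-type ethanol array, so background limits this difference. With each of the 12 arrays left out in turn, both calls were lost in 9 cases, with limma adjusted p up to 0.228.

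For Snord65, Snord69 and Snord71 the differences of -0.97, -1.51 and -1.18 did not pass (limma adjusted p = 0.17 for each), nor did those of Blvrb at -0.52 ± 0.14, Tmem86a at -0.46 ± 0.13 and Fyttd1 at 0.46 ± 0.13. The 95% confidence interval for Blvrb ran from -0.82 to -0.23 before adjustment over all genes. Without wild-type control 2 the difference between the genotypes was called for 84 genes (0.599%). The effects share no arrays, and the null effect of ethanol by itself was called for 1 gene (0.00713%).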

How the data were processed

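Total liver RNA was measured on 12 arrays (Affymetrix Mouse Gene 2.0 ST), as the labels' protocols state. The deposited intensity values, 1 per probe set and array on a linear scale, had been normalised with RMA by the authors, according to the submitters' processing notes, and log2 was taken here. Of 41345 probe sets, 23521 named exactly 1 gene, and the probe set with the highest mean over the 12 arrays stood for each of 22180 genes (1082 had several). Left out were 1814 probe sets that named several genes and 16010 that named none. Genes above the 40th percentile of their array on at least 3 arrays (14031) were tested with limma 3.58.1 in R 4.3.3 (lmFit, contrasts.fit, eBayes), with a mean per group over all 12 arrays and 8 residual degrees of freedom. Without wild-type control 2 there were 7. Adjusted p-values are Benjamini-Hochberg over all tested genes, and genes were called under 0.05. A gene below the filter is dim, not absent.

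The steps were tested on simulated data. The comparisons, the 43 lists of genes and the rule for naming were chosen with earlier results of these data known. Named were the called genes, the 12 largest rises and falls called without control 2 and without overlap, the 10 smallest p in each direction (both without snoRNAs, which are set apart, predicted genes, clone names, microRNAs, and receptor and immunoglobulin families), up to 4 members of smallest p per list, and 10 genes of ethanol and PPAR biology. RefSeq GRCm38.p6 gave gene spans, hosts of snoRNAs and promoter windows. SnoRNA genes are those named Snord, Snora or Scarna. Alternatives were no filter or a 60th percentile filter, an intensity trend with a robust prior, renewed quantile normalisation, wild-type arrays alone, the replicate number as a block, the mean of a gene's probe sets, array weights, snoRNA genes left out and each array left out. Leaving out other small RNAs too was chosen after seeing the data.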

Additional observations from a re-analysis of the deposited data

Results flagged for a closer look

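Snord53 and Snord111 stand here because their response to ethanol differed between the genotypes in the limma test of the difference itself. The difference, null minus wild-type, was -1.80 for Snord53 and -1.55 for Snord111, both with a limma adjusted p = 0.0484. Wild-type ethanol arrays were higher than wild-type control arrays in 3 of 3 samples for both, while in null mice the effects were -0.29 and -0.58. With each of the 12 arrays left out in turn, the limma adjusted p ran from 0.0065 to 0.228 for Snord53 and from 0.011 to 0.228 for Snord111. Both passed in 3 of the 12 cases, when control 2 of the wild-type or array 1 or 3 of the null ethanol group was left out. Snord111 lay below the filter on all 3 wild-type control arrays and on 2 of 3 wild-type ethanol arrays, and was tested mainly through the 3 null control arrays, where it was high, so its difference is one from values at background.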

How the results depend on the processing

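The count of 13 genes with all arrays, 9 of them snoRNAs, became 7 with 5 snoRNAs without a filter, 23 with the 60th percentile filter, 24 with an intensity trend and robust prior, and 832 with 50 snoRNAs under array weights, which gave wild-type control 2 a weight of 0.352. Of the 832, 640 were among the 810 called without that array. With wild-type arrays alone the count was 12, and 4 of these were among the 13. Without snoRNA genes, or without these and other small RNAs, it was 0 (limma, 1987 and 1979 genes at an unadjusted p under 0.05), since fewer small p-values enter the adjustment. Leaving out 1 array gave 0 to 810 genes and 0 to 48 snoRNAs. The 810 became 239 without a filter, 356 with wild-type arrays alone and 1414 with array weights, and 53 to 1088 with a further array left out. The count of 2 genes for the genotype difference became 1 without a filter, which was neither Snord53 nor Snord111 (limma adjusted p = 0.0707 and 0.0721). It became 0 with the 60th percentile filter (1565 at an unadjusted p under 0.05) and 0 without snoRNA genes or without all small RNAs (2068 and 2063). With array weights it was 38, and with 1 array left out 0 to 84. Except where stated, the cause was not tested.

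Replicate numbers did not pair the samples: between wild-type control and ethanol arrays of the same number, deviations from the group means correlated at 0.02, 0.05 and -0.11. With the number as a block 9 genes were called with all arrays, 8 of them snoRNAs, and 220 without control 2, 214 of them among the 810.

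Over named genes, 3655 values under the alternatives kept direction and side of the threshold, 149 passed only there, 126 no longer passed and 5 changed sign. Those 5 were small and not called: Col5a1 at -0.035 with the mean of its probe sets, and, with 1 array left out, Nr1d1 (-0.0061 to 1.20), Angptl4 (-0.0049 to 0.41) and Plin2 (-0.12 to 0.011, with 2 such values). List medians moved by less than the median standard error of the list's own genes in 940 cases and by more in 4, for lists with at most 5 genes left. The interferon list went from -0.20 to -0.05 without control 2, against a median standard error of 0.167 for its single genes. That value is not the error of the list's median. With 3 arrays a group, array number limits every value, and dim genes such as Cyp2b10 and Snord111 are limited by background.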
